A study of Mus musculus with 10 samples.

Results

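The genes described here mark the muscle and the pericytes of the vessel wall in mouse ventricle: Acta2, Tagln, Myh11, Cnn1, Smtn, Lmod1, Myocd, Pdgfrb, Notch3 and Rgs5. They were chosen by name, through the transcript accession of each array probe, which gave 11 probes for these 10 of 20144 named genes, among 39429 probes on the array. Smtn had 2 probes and each other gene had 1. The 5 hearts of the aldosterone group came from male mice given aldosterone, the salt-retaining hormone of the adrenal cortex, with a labelled duration of 7 days. The 5 hearts of the untreated group came from male mice with no treatment and the same labelled duration. The labels call the hearts of both groups Ctrl and give each a mouse number of its own, and strain, age, dose and route are not given in the sources used here. Ventricle RNA in Cy5 was hybridised to a 2-colour array against a pool of liver, brain, heart, kidney and spleen RNA in Cy3, which every array shared. Scanner files were used for 4 aldosterone and 5 untreated hearts, and only the authors' value table was used for aldosterone replicate 4.

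Smooth muscle cells of arteries contract through a smooth muscle actin and myosin, with calponin, transgelin, smoothelin and leiomodin as partners of the actin filament. Myocardin, a cofactor of serum response factor (SRF), switches on many of these genes at a promoter element called the CArG box. Pericytes wrap capillaries, carry the receptor Pdgfrb and share Notch3 and Rgs5 with arterial muscle. Several of these genes are also used outside the vessel wall: Acta2, Tagln and Cnn1 by activated fibroblasts, Pdgfrb by fibroblasts, and Myocd by heart muscle. In RNA of whole ventricle, fewer cells of a type and less RNA per cell cannot be told apart.

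An array had between 25349 and 27955 probes well above background in Cy5, or 64.3% to 70.9%, and the precision of every comparison is limited by the number of arrays. Cardiomyocyte markers fitted the labelled tissue, with a list mean of 1.22 to 1.52 on aldosterone arrays and 1.13 to 1.45 on untreated arrays, as log2 of Cy5 over Cy3. All values below are on this scale after loess normalization unless the value table is named, and all differences are aldosterone minus untreated. Dyes were not swapped, so a level against the pool can carry a dye effect that is shared by both groups. The first principal component of the deviations from the group means held 38.1% of their variance, with positive scores for aldosterone replicates 1 and 2 and untreated replicates 2 and 5 and negative scores for the other 5 arrays. Both signs occur in each group because the group means were removed.

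No smooth muscle or pericyte gene passed the test between aldosterone and untreated hearts. Of the 9 genes measured above background, 5 were higher and 4 were lower with aldosterone, the median difference was 0.014, and the extremes were Acta2 at 0.18 and Smtn at -0.15. The median over all 26877 probes tested was 0.0036. In limma 0 of the 10 tested probes of these genes had an adjusted p under 0.05, and 0 had an unadjusted p under 0.05. Over all probes 0 of 26877 were called, or 0%, and 1642 had an unadjusted p under 0.05, or 6.11% (3.99% higher and 2.12% lower). In the value table of all 10 hearts limma called 35 probes, or 0.13% (0.119% higher and 0.0112% lower), and 7.98% had an unadjusted p under 0.05 (4.59% higher and 3.39% lower). None of these belonged to the smooth muscle and pericyte genes, of which 7 were higher and 2 lower there, with a median difference of 0.047. The aldosterone and untreated groups overlapped for all 10 probes in both sources, where 2.03% of all probes in the scanner files and 1.91% in the value table had groups apart.

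**Figure D1:**
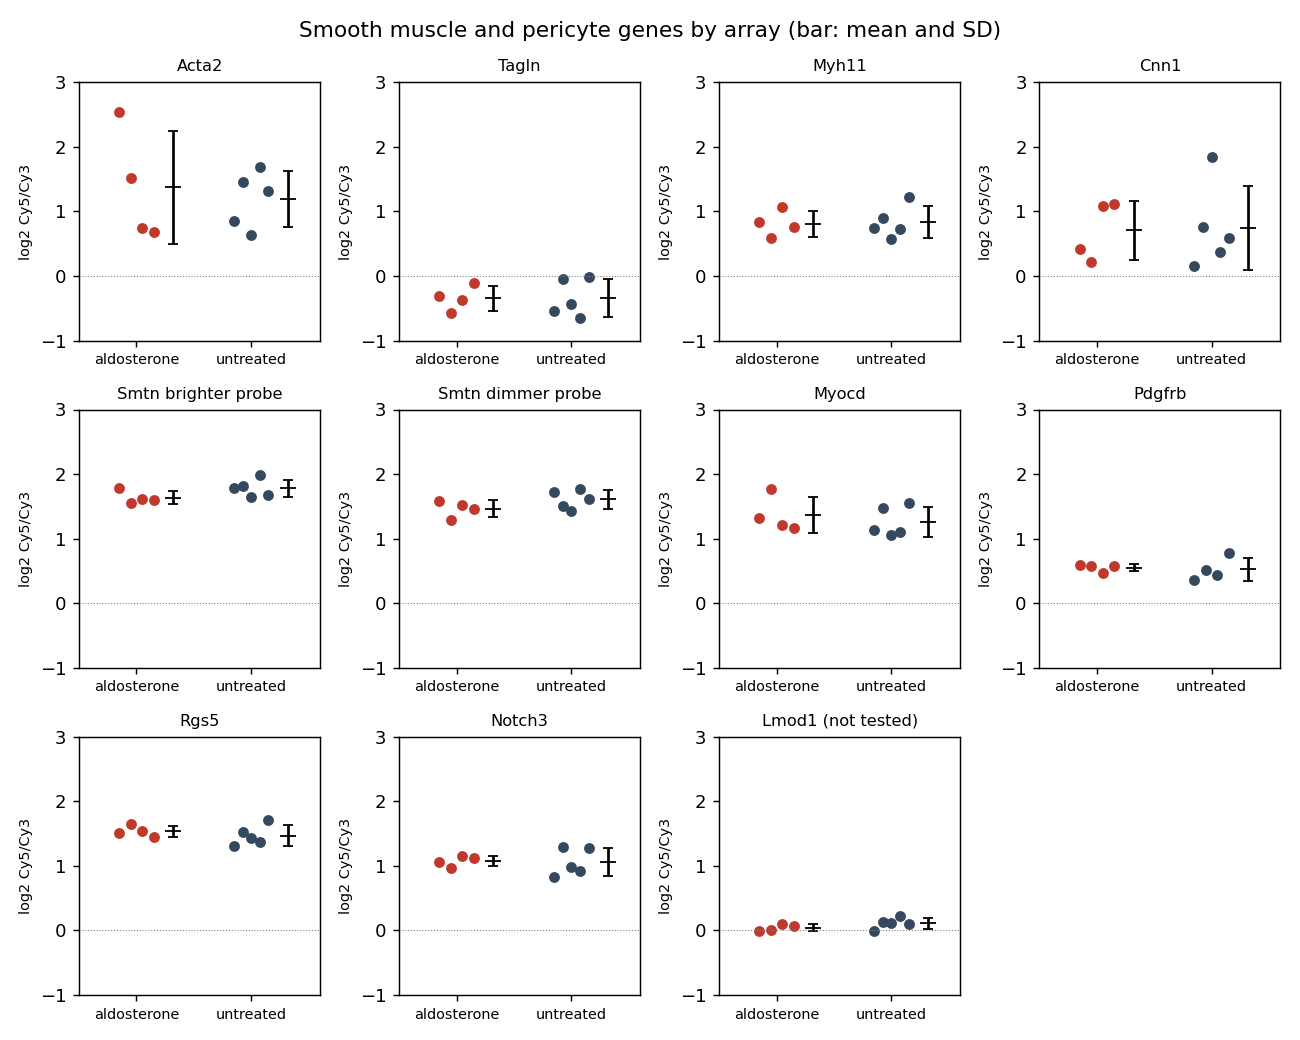
Log2 ratio of Cy5 heart over Cy3 pool (vertical axis) for each of the 11 probes, 1 point per array, with 4 aldosterone arrays left of 5 untreated arrays and the mean and SD as bars. The groups overlap in every panel, Acta2 and Cnn1 spread widest, and Pdgfrb shows 4 untreated arrays because 1 spot was marked as an outlier.

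Myocd encodes myocardin, the SRF cofactor that drives the contractile genes. It was 1.31, 1.77, 1.21 and 1.16 on aldosterone arrays 1, 2, 3 and 5, against 1.13, 1.47, 1.06, 1.10 and 1.55 on untreated arrays 1 to 5. Aldosterone 2 was the highest array, followed by untreated 5 and 2, and the other 6 lay between 1.06 and 1.31. The difference was 0.10 (SE 0.14; 95% confidence interval -0.21 to 0.42; limma adjusted p = 0.999), and an exact two-sided permutation test over the 126 splits of the arrays gave p = 0.571. Without aldosterone replicate 2 it was -0.032. The value table gave 0.10 (SE 0.13), with aldosterone replicate 4 at 2.23, the second highest of the 10 hearts after aldosterone replicate 2 at 2.31.

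Acta2 encodes the smooth muscle alpha-actin of the contractile filament. Its log2 ratio was 2.55, 1.52, 0.74 and 0.68 on aldosterone arrays 1, 2, 3 and 5, against 0.85, 1.46, 0.64, 1.69 and 1.32 on untreated arrays 1 to 5. Aldosterone 1 stood well above every other array, while aldosterone 3 and 5 lay with the lowest untreated hearts. The probe was printed in 10 spots per array, whose log2 ratios had an SD of 0.042 to 0.13 within an array, a measure of spot noise alone. The highest and lowest arrays differed 3.75-fold, and only 0.621% of all tested probes had a larger SD within groups than its 0.66. The groups differed by 0.18 (SE 0.36; 95% confidence interval -0.61 to 0.97; limma adjusted p = 0.999; exact permutation p = 0.738). Without aldosterone replicate 1 the difference was -0.21. In the value table, aldosterone replicate 4 was at 1.55, inside the untreated range of 0.85 to 1.89, and the difference was 0.17 (SE 0.34).

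Cnn1 encodes calponin 1, which binds actin and restrains the myosin motor in smooth muscle. It was 0.41, 0.22, 1.09 and 1.11 on aldosterone arrays 1, 2, 3 and 5, against 0.16, 0.76, 1.84, 0.37 and 0.58 on untreated arrays 1 to 5. Untreated 3 was highest and untreated 1 lowest, so the untreated hearts enclosed all aldosterone hearts. The 2 ends differed 3.22-fold, and 0.841% of all tested probes had a larger SD within groups than its 0.58. The difference was -0.034 (SE 0.31; 95% confidence interval -0.73 to 0.66; limma adjusted p = 0.999; exact permutation p = 0.952). It was 0.24 without untreated replicate 3, 0.065 without aldosterone replicate 1 and 0.13 without aldosterone replicate 2. The value table held the same order at its ends, with untreated 3 at 2.49 and untreated 1 at 0.56, and placed aldosterone replicate 4 at 1.12.

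The DNA just before the start of Acta2 and of Cnn1 is shown because these 2 targets of SRF spread most between the hearts and, as given further down, did not spread together. Both stretches are the 250 bases before the RefSeq start in the GRCm38.p6 build, 5′ to 3′ on the gene's strand, at chr19:34255374-34255623 (minus strand) for Acta2 and chr9:22099003-22099252 (plus strand) for Cnn1. Capitals mark CArG boxes with at most 1 of the 6 middle bases not A or T, and the word CATTCC on either strand, which TEAD factors bind.
Acta2: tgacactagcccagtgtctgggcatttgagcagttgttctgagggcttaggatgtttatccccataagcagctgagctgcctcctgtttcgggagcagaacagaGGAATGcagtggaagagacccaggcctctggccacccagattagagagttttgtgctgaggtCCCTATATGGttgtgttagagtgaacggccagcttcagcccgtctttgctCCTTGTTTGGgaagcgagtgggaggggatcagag
Cnn1: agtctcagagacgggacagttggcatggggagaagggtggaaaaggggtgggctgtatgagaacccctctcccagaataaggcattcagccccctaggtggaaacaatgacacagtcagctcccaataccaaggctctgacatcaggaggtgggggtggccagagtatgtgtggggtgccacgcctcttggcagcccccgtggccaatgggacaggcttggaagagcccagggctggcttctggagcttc
Acta2 held 2 such CArG boxes, from 84 to 75 and from 34 to 25 bases before the start, and 1 CATTCC word from 146 to 141 bases before it. Cnn1 held none of these in its window. Of 32851 windows of the same length before RefSeq starts, 8.59% held such a CArG box, 1.47% held one with all 6 middle bases A or T, and 12.6% held CATTCC. Windows were used for 6 of the 10 genes, and none was used for Tagln, Myh11, Myocd or Pdgfrb. Of the 4 used besides Acta2 and Cnn1 (Lmod1, Notch3, Rgs5 and Smtn), none held a CArG box of this kind. Lmod1 and Smtn held 1 CATTCC word each. A match describes the letters only.

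Myh11 encodes the smooth muscle myosin heavy chain, the most restricted marker of mature smooth muscle in this group. It was 0.84, 0.58, 1.07 and 0.75 on aldosterone arrays 1, 2, 3 and 5, against 0.74, 0.89, 0.58, 0.73 and 1.22 on untreated arrays 1 to 5. Both groups began near 0.58, and untreated 5 was the highest array. The difference was -0.023 (SE 0.13; 95% confidence interval -0.31 to 0.26; limma adjusted p = 0.999), and 0.0080 in the value table. Its spot was dim, at 271 to 355 units in Cy5. The level of Myh11 against the pool depended on the processing. The aldosterone and untreated means were 0.81 and 0.83 here and 1.91 and 1.90 in the value table, which holds 1 more aldosterone heart. Myocd (aldosterone mean 1.37 here and 2.00 there) and Cnn1 (0.71 and 1.20) were also higher in the value table.

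Tagln encodes transgelin (SM22-alpha), an actin-binding protein and classical SRF target. Its log2 ratio was -0.31, -0.58, -0.38 and -0.11 on aldosterone arrays 1, 2, 3 and 5, against -0.55, -0.049, -0.44, -0.65 and -0.0097 on untreated arrays 1 to 5. Of the tested genes it alone lay below the pool on all 9 arrays, although 3 of 10 hearts lay above it in the value table. The difference was -0.0057 (SE 0.14; 95% confidence interval -0.32 to 0.31; limma adjusted p = 1.00 when rounded; exact permutation p = 0.992). Its sign turned in 7 of 22 alternative settings, with values from -0.084 to 0.077.

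Smtn encodes smoothelin, a cytoskeletal protein of contractile smooth muscle that also has a longer vascular form. Its brighter probe read 1.78, 1.55, 1.61 and 1.59 on aldosterone arrays 1, 2, 3 and 5, against 1.79, 1.81, 1.64, 1.98 and 1.68 on untreated arrays 1 to 5. Its dimmer probe read 1.59, 1.29, 1.52 and 1.46 on those aldosterone arrays, against 1.73, 1.50, 1.43, 1.77 and 1.62 on untreated arrays. On both probes untreated 4 was the highest array and aldosterone 2 the lowest, and the groups overlapped. The differences were -0.15 (SE 0.079; 95% confidence interval -0.32 to 0.027) and -0.14 (SE 0.088; 95% confidence interval -0.34 to 0.048), or 0.903-fold and 0.904-fold. Neither passed (limma adjusted p = 0.891 and 0.936), and the exact permutation p was 0.111 and 0.175. Both probes were lower with aldosterone within each of the 4 slides, by -0.37 to -0.022 and by -0.25 to -0.027. Each slide held 1 aldosterone array and 1 or 2 untreated arrays, and the share of all probes with such a pattern is not given. The 2 probes were lower in every alternative setting in which they were fitted, 22 for the brighter and 21 for the dimmer probe, and none passed. Those settings share arrays, and both probes read the same gene in the same RNA. On leaving out each array in turn the brighter probe ranged from -0.20 to -0.097 and the dimmer probe from -0.19 to -0.086. Leaving out untreated replicate 4 gave -0.097 on the brighter probe, and leaving out aldosterone replicate 2 gave -0.086 on the dimmer probe. In the value table of all 10 hearts they differed by -0.10 (SE 0.071) and -0.14 (SE 0.085), with exact permutation p = 0.159 for each over 252 splits.

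Lmod1 encodes leiomodin 1, which seeds actin filaments in smooth muscle. Its spot was well above background on 1 of 4 aldosterone arrays and 1 of 5 untreated arrays, with 63 to 94 units in Cy5 and a Cy3 signal that was not well above background on any array. It was not tested, and its value table entries, which ran from -0.26 to 1.38 in aldosterone hearts and from -0.23 to 1.15 in untreated hearts, rest on these dim spots.

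Pdgfrb encodes the receptor through which platelet-derived growth factor B recruits pericytes to vessels. It was 0.59, 0.57, 0.47 and 0.57 on aldosterone arrays 1, 2, 3 and 5, against 0.36, 0.52, 0.44 and 0.78 on untreated arrays 1, 2, 3 and 5. The aldosterone hearts lay close together, inside the untreated range. The difference was 0.029 (SE 0.090; 95% confidence interval -0.17 to 0.23; limma adjusted p = 0.999), with the spot of untreated 4 left out as an outlier. In the value table, which gave untreated 4 at 0.78 and aldosterone 4 at 1.14, the highest of the 10 hearts, it was 0.096 (SE 0.082; exact permutation p = 0.246).

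Notch3 encodes the Notch receptor of mural cells, which needs contact with a ligand such as Jag1 on a neighbouring cell. It was 1.06, 0.97, 1.15 and 1.12 on aldosterone arrays 1, 2, 3 and 5, against 0.83, 1.30, 0.98, 0.92 and 1.27 on untreated arrays 1 to 5. The aldosterone hearts again lay inside the untreated range, whose upper end was untreated 2 and 5. The difference was 0.014 (SE 0.10; 95% confidence interval -0.21 to 0.24; limma adjusted p = 0.999).

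Rgs5 encodes a regulator of G protein signalling that is abundant in pericytes. It was 1.51, 1.65, 1.54 and 1.45 on aldosterone arrays 1, 2, 3 and 5, against 1.30, 1.53, 1.43, 1.37 and 1.71 on untreated arrays 1 to 5. Untreated 5 was the highest array and untreated 1 the lowest. The difference was 0.069 (SE 0.085; 95% confidence interval -0.12 to 0.26; limma adjusted p = 0.999; exact permutation p = 0.452), and it stayed positive in all 22 alternatives, from 0.028 to 0.13. Those alternatives share arrays. Within single slides Rgs5 was higher with aldosterone in 3 of 4, with differences from -0.26 to 0.22.

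**Figure D2:**
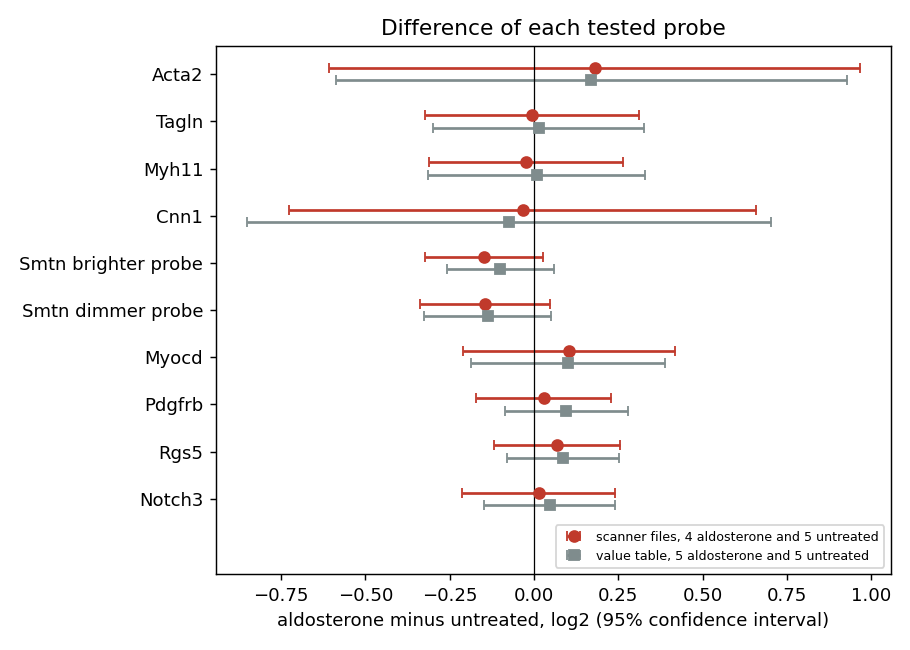
Aldosterone minus untreated difference on the log2 scale (horizontal axis) with its 95% confidence interval for each of the 10 tested probes, from the scanner files (circles) and from the value table (squares). Every interval spans 0, those of Acta2 (-0.61 to 0.97) and Cnn1 (-0.73 to 0.66) are the widest, and those of Smtn (-0.32 to 0.027 for the brighter probe) lie mostly below 0.

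Whether these genes rose and fell together between hearts was examined on the deviations from the group means, over 36 pairs of the 9 genes. Of the pairs, 23 had a positive Pearson r, the median r was 0.25, and r ran from -0.58 to 0.90. No pair passed adjustment over the 36 pairs, and 4 had an unadjusted p under 0.05 in an exact permutation within groups. The same counts for pairs of other genes are not given, so whether they are particular to these genes was not tested. Tagln and Notch3 had r = 0.90 over 9 arrays (exact permutation p = 0.00903, adjusted p = 0.1625; Spearman's rho = 0.88, exact permutation p = 0.017, adjusted p = 0.4375), and r was 0.78 without the 2 arrays farthest from the Tagln median. Myocd and Rgs5 had r = 0.83 (exact permutation p = 0.00694, adjusted p = 0.1625; rho = 0.72, exact permutation p = 0.0493, adjusted p = 0.4375), and r was 0.66 without the 2 farthest arrays. Myh11 and Notch3 had r = 0.72 (exact permutation p = 0.0399, adjusted p = 0.366; rho = 0.77, exact permutation p = 0.0462, adjusted p = 0.4375), with 0.60 without the 2 farthest. Pdgfrb and Rgs5 had r = 0.83 over 8 arrays (exact permutation p = 0.0538, adjusted p = 0.3875; rho = 0.67, exact permutation p = 0.108, adjusted p = 0.4375), but 0.21 without the 2 farthest. Leaving out the farthest arrays narrows the range of the first gene, which can lower r by itself. What a relation rests on cannot be read from these values.

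Acta2 and Smtn had r = 0.67 (exact permutation p = 0.0406, adjusted p = 0.366; rho = 0.62, exact permutation p = 0.0646, adjusted p = 0.4375), with 0.55 without the 2 arrays farthest from the Acta2 median. Acta2 and Cnn1 ran in opposite directions, with r = -0.58 (exact permutation p = 0.0872, adjusted p = 0.418; rho = -0.55, exact permutation p = 0.144, adjusted p = 0.4375) and -0.60 without the 2 farthest. Against Tagln, Acta2 had r = -0.034 and against Myh11 r = 0.056. All pairs share the arrays and their reference, and a slide held at most 3 of the arrays. With slide as well as group removed, which leaves 4 residual degrees of freedom (3 for pairs with Pdgfrb) and was added after the data were seen, r was 0.97 for Tagln and Notch3, 0.87 for Myocd and Rgs5 and 0.68 for Myh11 and Notch3. It was 0.96 for Pdgfrb and Rgs5, 0.75 for Acta2 and Smtn and -0.49 for Acta2 and Cnn1. Pairs not singled out above also moved far. Myh11 and Pdgfrb went from 0.57 to 0.99, Acta2 and Pdgfrb from 0.41 to 0.98, and Myh11 and Smtn from -0.027 to -0.59. With so few residual degrees of freedom, these values do not set the named pairs apart.

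**Figure D3:**
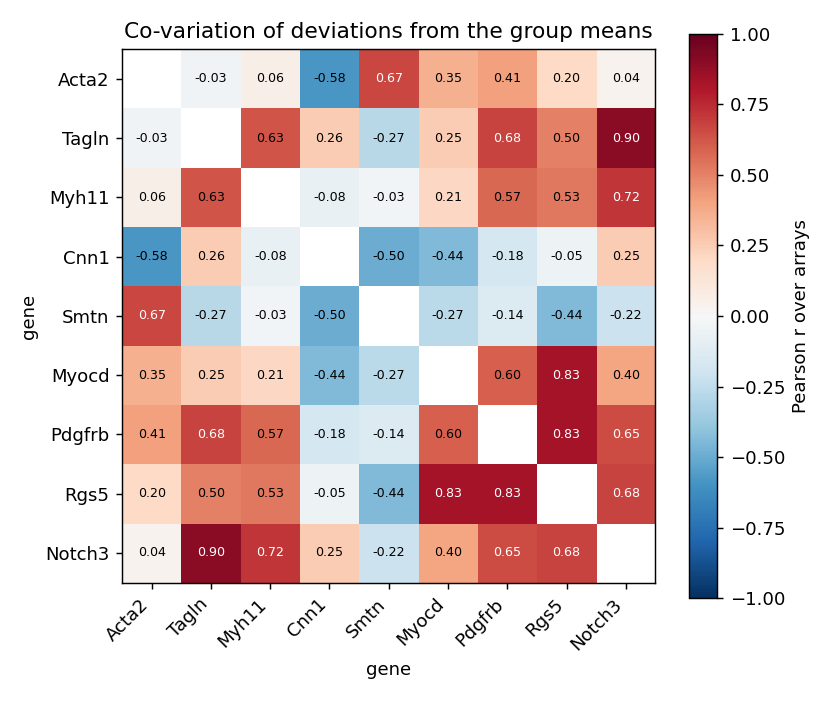
Pearson r between the deviations of 9 genes from their group means over 9 arrays (8 for pairs with Pdgfrb), as colour and printed value. Tagln and Notch3 (0.90) and Myocd and Rgs5 (0.83) are among the most positive pairs, and Acta2 and Cnn1 (-0.58) are the most negative.

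Among 15194 other genes, those whose deviations most resembled the mean of these 9 genes, each scaled to unit SD, were 9530091C08Rik, Defa29, Nid2, Hpse and Slc35e1, with Pearson r from 0.95 to 0.97 over 9 arrays. Nid2 encodes nidogen 2 of the basement membrane and differed by 0.37 (SE 0.075; limma adjusted p = 0.208), and Hpse encodes heparanase, which cuts heparan sulfate, and differed by 0.088 (SE 0.057). For Acta2 and Cnn1 alone, which were singled out after their spread was seen, the likest genes were Zfp113, Ccdc191 and Dysf (r from 0.95 to 0.96) and Ap3b1, Mad1l1 and Gsdma (r from 0.96 to 0.99). These likenesses are a description over 9 arrays that share their reference, with no test.

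Related genes outside these 10 were read from 8 lists with 87 genes, of which 85 were tested. Limma called 0 of them in the scanner files and 0 in the value table, 58 were higher and 27 lower with aldosterone, and 10 higher and 1 lower had an unadjusted p under 0.05. That is 12.9% of the 85, where 6.11% of all probes had such a p, and the median difference was 0.035. The share that was higher was 68.2% in these lists, against 51.6% of all tested probes. The lists were chosen with earlier results of these data known, so these shares are a description, and no set test was run. Of 20 other contractile genes 15 were higher, with a median of 0.079. Synpo2, an actin-binding Z-disc and smooth muscle protein, differed by 0.64 (SE 0.21; limma adjusted p = 0.648), and Ppp1r12b, a targeting subunit of myosin phosphatase, by -0.14 (SE 0.065; limma adjusted p = 0.834). Of 10 regulators of SRF and myocardin 5 were higher, and those of smallest p were the transcription factor gene Tead1 at 0.23 (SE 0.082; limma adjusted p = 0.692) and the SRF cofactor gene Mrtfb at 0.17 (SE 0.11; limma adjusted p = 0.937). Srf itself differed by 0.099 (SE 0.073).

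Of 15 other pericyte genes 8 were higher and 7 lower, with a median of 0.00040. Cspg4, the proteoglycan NG2 of pericytes, differed by 0.13 (SE 0.072; limma adjusted p = 0.900). Of 15 Notch pathway genes 11 were higher, with a median of 0.035, and the smallest p belonged to Adam10, a protease that cuts Notch, at 0.19 (SE 0.066; limma adjusted p = 0.673), and the ligand gene Jag1 at 0.11 (SE 0.091). Among 5 PDGF ligands and receptors, Pdgfra, the receptor of fibroblasts, differed by 0.28 (SE 0.074; limma adjusted p = 0.428) and Pdgfc by 0.22 (SE 0.11). Pdgfb, the ligand of Pdgfrb, differed by 0.078 (SE 0.089).

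Of 5 tested relatives of Rgs5 in the R4 family, Rgs16 differed by 0.22 (SE 0.078; limma adjusted p = 0.702) and Rgs3 by -0.20 (SE 0.078; limma adjusted p = 0.747). Of the other actins, the cytoplasmic Actg1 differed by 0.35 (SE 0.12; limma adjusted p = 0.651) and the skeletal Acta1 by 0.63 (SE 0.37; limma adjusted p = 0.923), while the cardiac Actc1 differed by -0.035 (SE 0.074). Of 11 tested relatives of calponin, transgelin, leiomodin, smoothelin and smooth muscle myosin, tropomodulins included, 9 were higher, with a median of 0.12. The non-muscle myosin genes Myh10 and Myh9 differed by 0.27 (SE 0.085; limma adjusted p = 0.606) and 0.25 (SE 0.098; limma adjusted p = 0.750), and Cnn3, the non-muscle calponin, by 0.17 (SE 0.067; limma adjusted p = 0.746). None of these passed, so they are values and not calls.

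Markers of other cells in the wall are set beside these values. Fibroblast markers were higher for 9 of 9 genes with a median of 0.39, and their list mean was 0.58 to 1.13 on aldosterone arrays and 0.23 to 0.90 on untreated arrays. The list mean of the smooth muscle and pericyte genes was 0.92 to 1.08 on aldosterone arrays and 0.73 to 1.12 on untreated arrays. Endothelial markers were higher for 3 of 8 genes (median -0.027), cardiomyocyte markers for 4 of 8 (-0.014), macrophage markers for 6 of 6 (0.19), red blood cell markers for 5 of 5 (0.23) and adipocyte markers for 0 of 5 (-0.23). In the value table the median was -1.09 for adipocyte markers and 0.33 for macrophage markers. Limma called no gene of any of these lists. In the scanner files the unadjusted p was under 0.05 for 6 of 9 fibroblast, 1 of 8 endothelial and 1 of 6 macrophage genes. It was also under 0.05 for 3 of 5 red blood cell and 2 of 5 adipocyte genes. Of all tested probes there, 6.11% had such a p and 51.6% were higher. The part of these cells in the values of the smooth muscle and pericyte genes was not tested.

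**Figure D4:**
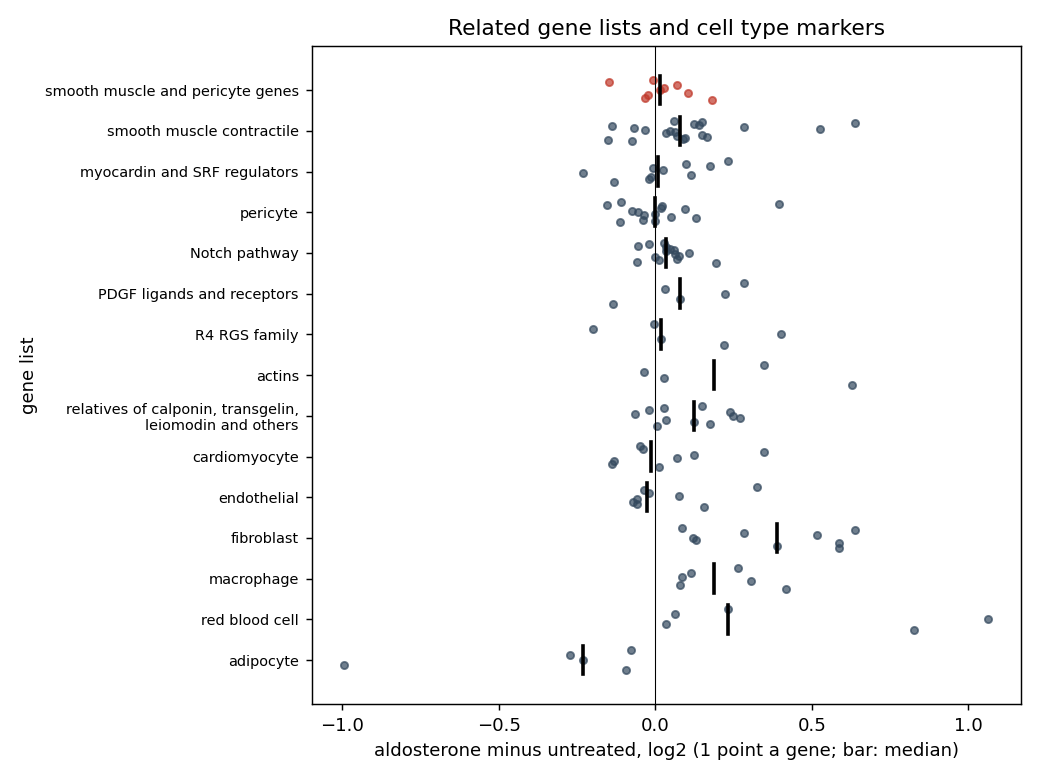
Aldosterone minus untreated difference on the log2 scale (horizontal axis) for each tested gene of the smooth muscle and pericyte group (top row), 8 related lists and 6 cell type marker lists, 1 point per gene with the median as a bar. The top row centres on 0.014, pericyte genes on 0.00040 and fibroblast markers on 0.39.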

How the data were processed

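Spot intensity values of 9 arrays were read from the deposited scanner output of Agilent Feature Extraction, version 10.7.3.1 per the submitters' processing notes. The scanner's log10 ratio sets Cy5 over Cy3, as deposited. The authors' deposited value table holds log2 ratios of 10 hearts. It followed the scanner's ratio once that was put on a log2 scale and averaged by probe (slope 1.00; Pearson r from 0.996 to 1.00 across probes; 82.7% to 86.5% of probes within 0.001), so scale and direction are known and no centring was seen. Its column medians were 0.044, 0.080, 0.11, -0.0066 and 0.037 for aldosterone replicates 1 to 5 and 0.056, 0.064, 0.12, 0.017 and 0.016 for untreated replicates 1 to 5.

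Median signals were corrected with normexp (offset 50), after local backgrounds more than 20 units from an array's median were replaced by that median (0 to 85 spots per channel). Loess within arrays gave control spots no weight (limma 3.58.1 in R 4.3.3). Outlier spots (1667) were left out and spots of a probe averaged. Probes well above background in Cy5 on at least 4 arrays were tested (26877). Accessions were named through RefSeq records of GRCm38.p6, for 26581 of 39429 probes, and promoter sequences come from RefSeq. In lists and pairs each gene counts through its brightest probe in Cy5.

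Limma compared the groups with a two-sided test, adjusted by Benjamini-Hochberg across every tested probe, and exact permutation tests were run for single values. The fit was tested on simulated data. The members, lists and tests were chosen with earlier results of these data known. By rule, the text names all 10 genes, the 2 of smallest p in each pathway list and the 5 genes most like the mean of the 10; Myh9, Srf, Pdgfb and Actc1 were added after their values were seen, and 1 gene that the rule names is not reported here. All 4 slides held both groups, and a slide was scanned as a unit, which makes them the same batch. Aldosterone arrays sat at position 2 and untreated arrays at positions 1 or 4, and group cannot be told apart from position. Replicate numbers are not labelled as pairs.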

Additional observations from a re-analysis of the deposited data

Results flagged for a closer look

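In the value table, the dimmer Smtn probe of aldosterone replicate 2 read 1.78, far below the other 4 aldosterone hearts relative to their spread. It was 1 of 44 groups of values examined for such a gap, of which chance alone marks about 1 in 20. In the loess-normalized scanner files the same array was again the lowest aldosterone array on this probe, at 1.29.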

How the results depend on the processing

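No smooth muscle or pericyte gene was called under any of the 22 alternatives run with limma, the smallest adjusted p being 0.628 for the brighter Smtn probe with the first principal component as a covariate and 0.657 in the other settings. That component comes from the residuals of the same fit, so on complete data it leaves the differences as they are and alters their SE alone (Acta2 0.25, Cnn1 0.25, Myocd 0.094). The median difference over these genes ranged from -0.044 to 0.077 on leaving out single arrays, and from -0.021 with the replicate block to 0.047 in the value table under the others. Over all probes 0 were called, against 8 with the scanner's own log ratio, 35 in the value table of 10 hearts, 2 with the replicate block, 1 with the first principal component as a covariate and 0 to 12 on leaving out 1 array (12 without untreated replicate 3 or 5, 2 without untreated 4, 1 without aldosterone 1). Small differences changed sign: Myh11 was 0.048 with local backgrounds as deposited and 0.0080 in the value table, Tagln was 0.014 in the value table, 0.016 in the Cy5 channel alone and 0.0030 with slide as a block, Pdgfrb was -0.00069 in the Cy5 channel alone, and Notch3 was -0.021 with the replicate block. On leaving out each array in turn, Acta2 ranged from -0.21 to 0.41, Cnn1 from -0.18 to 0.24, Tagln from -0.084 to 0.077, Myh11 from -0.11 to 0.073, Myocd from -0.032 to 0.17, Pdgfrb from -0.024 to 0.11 and Notch3 from -0.044 to 0.074. With the replicate block the differences of these genes equal those without untreated replicate 4, which has no aldosterone array of its number in the scanner files. The cause of the other changes was not tested beyond the arrays left out. Deviations of same-numbered arrays had correlations of 0.059, 0.34, 0.34 and -0.32, so the numbers were not taken as pairs, and the replicate block changed no call of these genes. The dimmer Smtn probe has no value with 1 probe per gene.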
